A study of Mus musculus with 6 samples.

Results

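The genes described here are 10 named for their part in heat production by brown and beige fat cells: Ucp1, Ppargc1a, Ppargc1b, Prdm16, Dio2, Elovl3, Cox8b, Cox7a1, Otop1 and Kcnk3. They were found on the arrays by their symbol in the platform annotation, and a gene with more than 1 probe set was read from its brightest, by the mean of all 6 arrays. Of the 10 genes, 9 were read by a probe set with a single gene symbol, among 21996 named genes in all. Kcnk3, which encodes a background potassium channel, was named by 2 probe sets only together with another gene, so no value is given for it. RNA came from adipocytes differentiated in culture from the C3H10T1/2 line of mouse mesenchymal cells, which can form fat, muscle, bone and cartilage, and was hybridised to 1 Affymetrix array per culture. The labels give 9 days of differentiation and an adenovirus exposure of 72 h at a multiplicity of infection of 50 for every culture, so the control cells carried virus too. In 3 biological replicates (scramble) the virus held a scrambled short hairpin RNA, and in 3 (Zc3h10 shRNA) a hairpin driven by a U6 promoter against Zc3h10, whose product binds RNA through zinc fingers of the CCCH type. The groups thus differ by 1 hairpin sequence against 1 control, in 1 cell line, and no adrenergic stimulation is named in the labels.

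Brown adipocytes burn fuel to make heat: noradrenaline raises cyclic AMP, which frees fatty acids and switches on transcription, and the protein UCP1 lets protons back across the inner mitochondrial membrane without making ATP. Beige adipocytes arise among white fat cells and can acquire the same programme. PRDM16 and the PGC-1 coactivators are known as regulators of this programme, DIO2 supplies active thyroid hormone inside the cell, and the remaining genes encode parts of the lipid and respiratory machinery or membrane channels that brown fat is rich in.

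In the Zc3h10 shRNA cells 5 of the 9 measured genes fell and 0 rose (limma, adjusted p under 0.05 over all 33079 probe sets). Those that fell were the fatty acid elongase Elovl3, the cytochrome c oxidase subunits Cox7a1 and Cox8b, the proton channel Otop1 and the coactivator Ppargc1b, with levels at 23.2% to 59.8% of scramble. Ucp1, Ppargc1a, Prdm16 and Dio2 did not pass. Over all named genes, 6.6% were lower by the same rule, and 12.1% changed in either direction. Among the 11534 named genes whose mean signal lay above the background limit given next, 11.9% were lower. The median log2 difference (Zc3h10 shRNA minus scramble throughout) was −0.74 over the 9 genes and 0.01 over all named genes. In bulk RNA, fewer cells with a transcript and less of the transcript per cell cannot be told apart.

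Background was read from 1096 olfactory receptor genes, which are mostly silent outside sensory tissue, because the values carry no detection calls. Their median intensity over the 6 arrays was 5.20, and the upper limit of their central 95% was 20.5 intensity units (log2 of 4.36). Elovl3, Cox8b, Cox7a1, Otop1, Ppargc1b and Prdm16 lay above this limit, taken array by array, on all 6 arrays. Ucp1, Ppargc1a and Dio2 lay below it on all 6, so the size of any change in these 3 genes is uncertain. The genes of the first set were 5.71 to 130.1 times the olfactory median in scramble cells, and those of the second set 1.87 to 3.35 times.

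**Figure D1:**
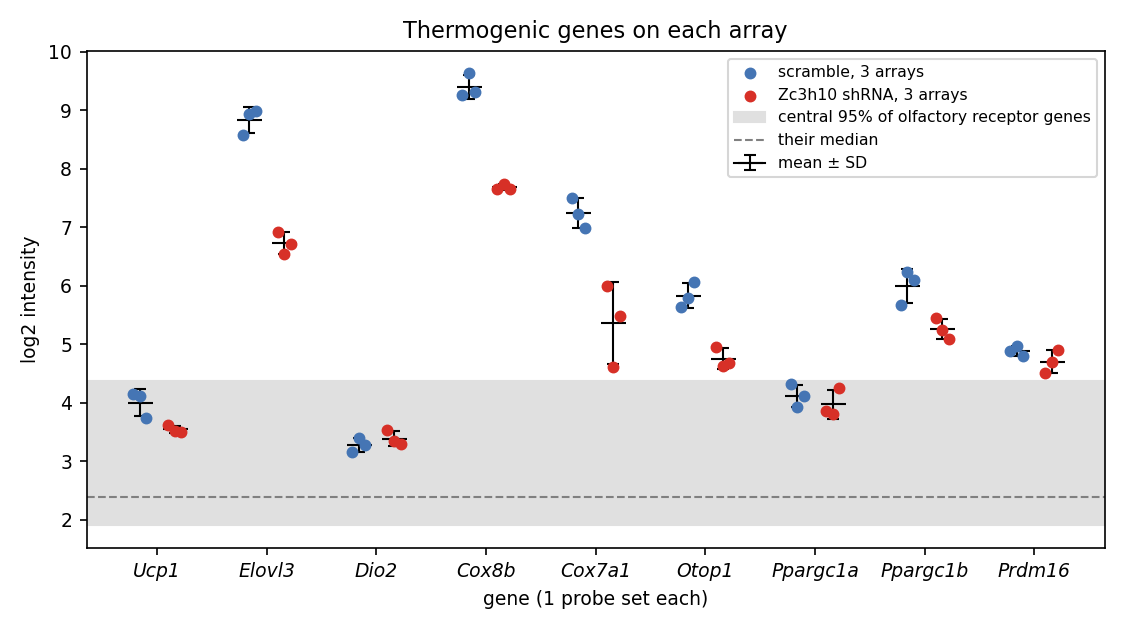
Log2 intensity of the 9 measured thermogenic genes on each of 3 scramble (blue) and 3 Zc3h10 shRNA (red) arrays, with the mean and SD of each group; the grey band is the central 95% of 1096 olfactory receptor genes and the dashed line their median. Ucp1, Dio2 and Ppargc1a lie inside the band in both groups. The groups are apart without overlap for Ucp1, Elovl3, Cox8b, Cox7a1, Otop1 and Ppargc1b. They were also apart for 31.9% of all named genes, and for 5783 of the 11534 above the background limit.

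RefSeq promoters were sought for the genes that fell, which passed the threshold, and for Ucp1, which names the programme. The RefSeq table (build GRCm38.p6) matched 7 of the 10 genes. No window is given for Elovl3 or Ppargc1b, which fell too. Of the genes to be shown it held Cox8b (chr7:140900397-140900696, minus strand), Cox7a1 (chr7:30183921-30184220, plus strand), Otop1 (chr5:38277154-38277453, plus strand) and Ucp1 (chr8:83290098-83290397, plus strand). Each window runs 5′ to 3′ on the gene's strand, from 250 bases before the annotated start to 50 bases after it. Capitals mark every match, on either strand, to AGGTCA (the core site of many nuclear receptors), TGACGTCA (the cyclic AMP response element), TCAAGGTCA (the element of estrogen-related receptors, which holds AGGTCA within it), CCAAT (the CCAAT box) or TATAAA (the TATA box).
Ucp1: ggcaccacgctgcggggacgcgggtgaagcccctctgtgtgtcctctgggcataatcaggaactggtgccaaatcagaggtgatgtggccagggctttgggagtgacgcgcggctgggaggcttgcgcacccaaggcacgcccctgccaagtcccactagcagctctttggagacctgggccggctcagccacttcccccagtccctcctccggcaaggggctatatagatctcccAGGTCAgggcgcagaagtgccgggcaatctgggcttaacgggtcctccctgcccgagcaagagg
Cox8b: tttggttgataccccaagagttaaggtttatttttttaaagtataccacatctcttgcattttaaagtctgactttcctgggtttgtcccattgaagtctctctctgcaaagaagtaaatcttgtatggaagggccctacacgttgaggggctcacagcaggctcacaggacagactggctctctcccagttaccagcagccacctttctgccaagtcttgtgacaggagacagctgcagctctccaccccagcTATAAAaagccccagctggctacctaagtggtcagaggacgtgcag
Cox7a1: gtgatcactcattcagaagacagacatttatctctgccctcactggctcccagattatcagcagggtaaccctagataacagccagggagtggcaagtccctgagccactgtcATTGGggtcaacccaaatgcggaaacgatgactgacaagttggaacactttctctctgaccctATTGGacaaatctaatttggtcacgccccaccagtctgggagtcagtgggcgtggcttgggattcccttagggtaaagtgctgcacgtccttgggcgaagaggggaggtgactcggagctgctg
Otop1: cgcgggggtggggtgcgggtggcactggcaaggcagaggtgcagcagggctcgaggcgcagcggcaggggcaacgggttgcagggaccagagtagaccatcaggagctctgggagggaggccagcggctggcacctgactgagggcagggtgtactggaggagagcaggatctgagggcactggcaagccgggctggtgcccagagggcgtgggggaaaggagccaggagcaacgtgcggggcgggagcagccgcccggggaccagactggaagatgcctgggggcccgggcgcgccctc

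The 3 genes that fell and are shown shared none of these letters. Cox8b held TATAAA, beginning 5 bases into the annotated transcript, Cox7a1 held CCAAT on the opposite strand beginning 137 and 74 bases before the start, and the Otop1 window held no match. The Ucp1 window held AGGTCA beginning 14 bases before the start, and the Dio2 window, not shown because Dio2 did not pass, held TGACGTCA and TATAAA. Among 32851 RefSeq promoter windows of the same 300 bases, 16.3% held AGGTCA, 1.79% TGACGTCA, 0.423% TCAAGGTCA, 37.4% CCAAT and 13.6% TATAAA. These matches describe letters in a window and say nothing of which factors bind there.

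Ucp1, the uncoupling protein that defines thermogenic fat, gave a low signal in both groups. In replicate order, its scramble intensities were 17.8, 17.2 and 13.3 and its Zc3h10 shRNA intensities 12.3, 11.4 and 11.3. All shRNA arrays lay below all scramble arrays. In either direction, the groups were apart for 31.9% of named genes, and for 5783 of the 11534 above the background limit. The means were 16.1 ± 2.45 (SD, n = 3) and 11.7 ± 0.537 (SD, n = 3), a log2 difference of −0.46 ± 0.13 (SE), or 72.9% of scramble (95% confidence interval 59.5 to 89.2%; limma, adjusted p = 0.0628, not past the threshold). Of the 1096 olfactory receptor genes, 43 were at or above the Ucp1 level in scramble cells and 83 in shRNA cells. Ucp1 passed without scramble replicate 3 (adjusted p = 0.0217), its dimmest scramble array, and with the dimmest probe sets (below the lower quartile) left out of the fit (adjusted p = 0.0469), in a range of 0.0217 to 0.192 over 14 alternatives.

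Elovl3 lengthens saturated fatty acids to very long chains and rises in brown fat in the cold. Its intensities were 382, 488 and 505 on the scramble arrays and 121, 93.0 and 105 on the shRNA arrays, so that the lowest scramble array stood far above the highest shRNA array. The log2 difference was −2.11 ± 0.14, or 23.2% of scramble (95% confidence interval 18.5 to 29.2%; limma, adjusted p = 0.000658). Elovl3 held rank 10 among 21996 named genes ordered from the most negative difference. It stayed past the threshold in all 15 alternatives with a test.

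Dio2, the deiodinase that turns thyroxine into active thyroid hormone within the cell, was at background. Its intensities were 8.92, 10.5 and 9.67 in scramble cells and 11.5, 10.1 and 9.78 in shRNA cells, and the groups overlapped. The log2 difference was 0.11 ± 0.11 (limma, adjusted p = 0.644), with a 95% confidence interval of −0.14 to 0.35. At or above this level lay 117 olfactory receptor genes in scramble cells and 103 in shRNA cells, and the second probe set of Dio2 was dimmer still, at a mean of 5.84 ± 0.532 (SD, n = 3) in scramble cells and 6.12 ± 1.14 (SD, n = 3) in shRNA cells. No change of Dio2 was detectable at this signal.

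Cox8b and Cox7a1 each encode a small subunit of cytochrome c oxidase, the last complex of the electron transport chain, in the isoform found in heart, skeletal muscle and brown fat. The Cox8b intensities were 612, 792 and 632 on the scramble arrays and 202, 213 and 200.3 on the shRNA arrays, which were tightly grouped. The log2 difference was −1.72 ± 0.12, or 30.4% of scramble (95% confidence interval 25.2 to 36.7%; limma, adjusted p = 0.000658). The fall was past the threshold in all 15 alternatives with a test.

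Cox7a1 had intensities of 180.45, 150.1 and 127 on the scramble arrays and 64.0, 24.3 and 44.7 on the shRNA arrays. The groups did not overlap, but the shRNA arrays spread more for this gene than for any other of the 9, with an SD of 0.71 on the log2 scale. The log2 difference was −1.88 ± 0.32, or 27.3% of scramble, with a wide 95% confidence interval of 16.4 to 45.2% (limma, adjusted p = 0.00858). It passed without each single array in turn, with differences of −2.19 to −1.50, but not with an ordinary t statistic (adjusted p = 0.107), in a range of 0.00129 to 0.107 over 15 alternatives.

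Otop1 encodes otopetrin 1, a proton channel known from sour taste cells and the inner ear that is also expressed in brown fat. Its intensities were 49.6, 55.2 and 67.2 on the scramble arrays and 31.0, 24.7 and 25.5 on the shRNA arrays, with no overlap. The log2 difference was −1.08 ± 0.14, or 47.3% of scramble (95% confidence interval 37.8 to 59.2%; limma, adjusted p = 0.00285). The shRNA level was close to the background limit, and 15 olfactory receptor genes were at or above it. With the olfactory median of each array subtracted before log2, the difference was −1.25 for Otop1, −2.04 for Cox7a1, −2.16 for Elovl3, −1.74 for Cox8b and −0.83 for Ppargc1b.

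**Figure D2:**
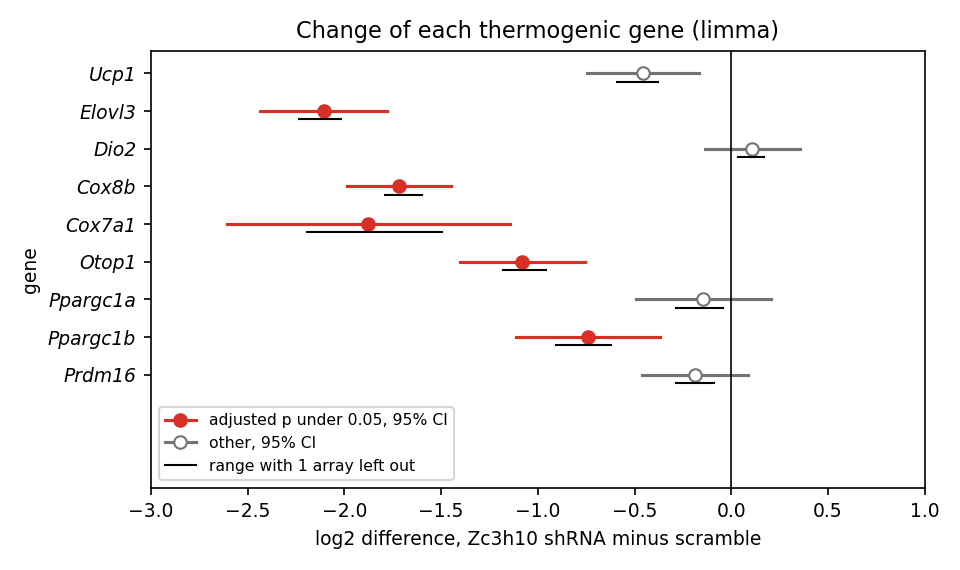
Log2 difference (Zc3h10 shRNA minus scramble, x axis) of the 9 measured thermogenic genes with its 95% confidence interval from limma; filled red points passed an adjusted p under 0.05, and the thin black line spans the values with 1 array left out. Elovl3, Cox7a1 and Cox8b lie below −1.5, and the interval of Ucp1 excludes 0 although its adjusted p is 0.0628.

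Ppargc1a, the cold-inducible coactivator that drives mitochondrial and thermogenic genes, had intensities of 19.9, 15.2 and 17.2 in scramble cells and 14.5, 13.9 and 19.1 in shRNA cells, with overlapping groups. Its log2 difference was −0.14 ± 0.15 (limma, adjusted p = 0.667), and the 95% confidence interval of 71.1 to 115% of scramble is that of a probe set at background. Ppargc1b, its relative with a role in basal mitochondrial gene expression, had intensities of 50.9, 75.3 and 68.0 in scramble cells and 43.5, 37.8 and 34.0 in shRNA cells, without overlap. The log2 difference of Ppargc1b was −0.74 ± 0.16, or 59.8% of scramble (95% confidence interval 46.2 to 77.4%; limma, adjusted p = 0.0249).

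The call of Ppargc1b was the least stable of the 5. It was lost on leaving out scramble replicate 2 (adjusted p = 0.0870) or 3 (0.0846), or shRNA replicate 2 (0.0792) or 3 (0.0936), and with an ordinary t statistic (0.143), in a range of 0.00843 to 0.143 over 15 alternatives. The log2 difference itself was −0.90 to −0.62 with 1 array left out.

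Prdm16, the zinc finger factor that sets brown over muscle identity, was above the background limit on all arrays by the brighter of its 2 probe sets. Its intensities were 29.5, 31.4 and 27.9 in scramble cells and 22.7, 25.9 and 29.8 in shRNA cells, with overlap. The log2 difference was −0.19 ± 0.12 (limma, adjusted p = 0.433), with a 95% confidence interval of 72.7 to 106% of scramble. The scramble mean of 29.6 was near the background limit, where residual background can compress a fall. A larger fall is therefore not excluded by this interval. The second, dimmer Prdm16 probe set was above the limit on 0 of the scramble and 0 of the shRNA arrays. It gave 0.06 ± 0.13 (limma, adjusted p = 0.872).

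Cox8b, Cox7a1, Elovl3 and Ppargc1a were each also set against a widely expressed or related counterpart within the same array, which compares changes and not levels. Cox8b fell by 1.72 on the log2 scale and its ubiquitous isoform Cox8a gave −0.24 ± 0.09 (limma, adjusted p = 0.171), which passed as lower with the offset (0.0467) and with the intensity trend (0.0206). The log2 ratio of Cox8b to Cox8a was −1.96, −1.76 and −2.06 on the scramble arrays and −3.44, −3.41 and −3.35 on the shRNA arrays, a shift of −1.47 ± 0.09 (SE). Cox7a1 shifted against Cox7a2, its liver-type isoform, by −1.49 ± 0.46, and Cox7a2 itself gave −0.38 ± 0.10 (limma, adjusted p = 0.0558). Cox7a2 passed as lower in 6 alternatives: median scaling (adjusted p = 0.0478), cyclic loess scaling (0.0467), an offset of 32 (0.0233), an intensity trend (0.00684), and probe sets below the lower quartile (0.0389) or below the median (0.0197) left out.

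Elovl3 shifted by −1.52 ± 0.13 against Elovl6, a lipogenic elongase that fell too, by 0.59 on the log2 scale (limma, adjusted p = 0.00722). For these 3 pairs the ratios of the groups did not overlap, and the two-sided exact permutation test gave p = 0.1, the smallest that 3 against 3 arrays allow, or 0.133 adjusted over the 4 pairs compared. Ppargc1a against Ppargc1b shifted by 0.60 ± 0.36 with overlapping ratios (exact permutation p = 0.3, adjusted p = 0.3), and the size of this shift is uncertain because Ppargc1a lay below the background limit on all 6 arrays.

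**Figure D3:**
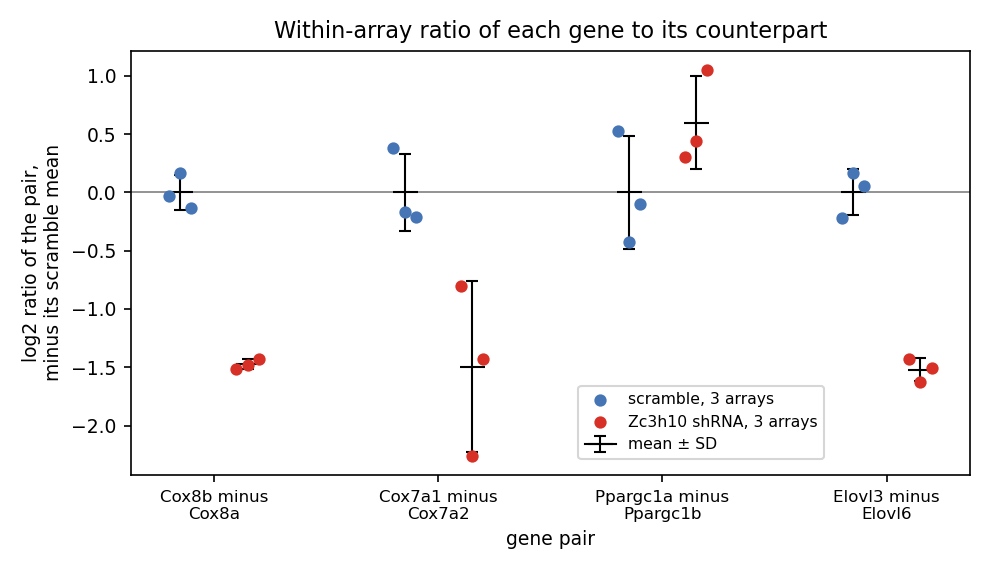
Within-array log2 ratio of each thermogenic gene to its counterpart, minus the mean ratio of the scramble arrays (y axis), for 4 gene pairs on 3 scramble (blue) and 3 Zc3h10 shRNA (red) arrays with mean and SD. The ratios of Cox8b to Cox8a, Cox7a1 to Cox7a2 and Elovl3 to Elovl6 lie lower on all shRNA arrays, with shifts of −1.47, −1.49 and −1.52, and those of Ppargc1a to Ppargc1b overlap.

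Among 22 measured paralogs of the thermogenic genes, 3 fell and 1 rose. This is 18.2% of the list changed, beside 12.1% of all named genes and 21.7% of those above the background limit. Of the 22 paralogs, 12 lay above the limit in scramble cells. The fatty acid elongase Elovl4, which makes the longest chains, fell by 1.20 ± 0.14, and Ucp3, the relative of Ucp1 in muscle and fat, by 1.01 ± 0.17 to an shRNA level within the olfactory range. Ucp3 missed the threshold with an ordinary t statistic (adjusted p = 0.0914). Mecom, the closest relative of Prdm16, rose by 0.50 ± 0.11 (limma, adjusted p = 0.0231). Over all named genes 6.6% were lower and 5.51% were higher. Mecom missed the threshold on leaving out scramble replicate 2 (adjusted p = 0.0896) or 3 (0.0840), or shRNA replicate 2 (0.0797) or 3 (0.0835), and with an ordinary t statistic (0.0821). The median log2 difference of the paralogs was 0.08, and Ucp2 was not analysed here.

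Of a wider list of 22 measured brown and beige markers, 7 fell and 0 rose, with a median of −0.12. This is 31.8% of the list, beside 6.6% of all named genes and 11.9% of those above the limit lower, and 12 of the 22 lay above the background limit in scramble cells. Cidea, a lipid droplet protein of brown fat, fell by 2.39 ± 0.21, and Slc36a2, an amino acid transporter used as a brown marker, by 2.16 ± 0.11 (limma, adjusted p = 0.000549). Letmd1, a mitochondrial inner membrane protein, fell by 0.82 ± 0.11, Pank1, which starts coenzyme A synthesis, by 0.79 ± 0.12, and Pdk4, a kinase that restrains pyruvate dehydrogenase, by 0.72 ± 0.11. The nucleoside transporter Slc29a1 fell by 0.61 ± 0.09, and the adhesion protein gene Mpzl2 by 1.10 ± 0.14 to an shRNA level within the olfactory range. The developmental brown factors Zic1 and Lhx8 and the beige marker Tnfrsf9 had levels inside the olfactory range in both groups, and Ebf2, a factor of brown precursors, was above it at −0.13 ± 0.11 (adjusted p = 0.610). The beige markers Tbx1 (means of 288 and 211, adjusted p = 0.0818) and Cited1 (44.0 and 48.5, adjusted p = 0.484) were above it too and did not pass, although Tbx1 passed as lower with an intensity trend (adjusted p = 0.0251) and with probe sets below the median left out (0.0368). These 6 were picked after their values were seen.

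Of 35 measured genes for receptors, cyclic AMP signalling and transcription that induce or restrain the programme, 7 fell and 0 rose, with a median of −0.08. This is 20% of the list, of which 31 genes lay above the background limit, beside 11.9% lower and 21.7% changed in either direction among named genes above it. They included both listed subunits of protein kinase A, which carries the cyclic AMP signal: the catalytic subunit Prkaca fell by 0.91 ± 0.08 (limma, adjusted p = 0.000881) and the regulatory subunit Prkar2b by 1.05 ± 0.13. Prkaca had mean intensities of 1560 ± 69.0 (SD, n = 3) in scramble and 828 ± 14.3 (SD, n = 3) in shRNA cells. The adipogenic factors Cebpa (−1.71 ± 0.14) and Pparg (−0.96 ± 0.12) fell, as did the fatty acid sensor Ppara (−0.64 ± 0.10) and Gabpa (−0.56 ± 0.09), an ETS factor of nuclear genes for mitochondria. Rxra, the common partner of these nuclear receptors, was at −0.36 ± 0.08 (adjusted p = 0.0333) and missed the threshold without any one of the 6 arrays (adjusted p of 0.0555 to 0.114). Esrra, the estrogen-related receptor that works with PGC-1, was at −0.18 ± 0.14 (adjusted p = 0.555). The listed regulator Foxc2, named after its values were seen, was at 0.32 ± 0.09 (limma, adjusted p = 0.0660). It passed as higher with an offset of 32 (0.0127) and an intensity trend (0.0268). It also passed with probe sets below the lower quartile (0.0437) or below the median (0.0203) left out. The β-adrenergic receptors were not analysed here.

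Heat production that does not need UCP1 was followed in 15 genes of creatine cycling, calcium cycling and carrier-mediated proton leak. Of these, 1 fell and 0 rose, and the median was −0.04. This is 6.67% of the list changed, beside 12.1% of all named genes and 21.7% of those above the background limit. In scramble cells 8 of the 15 lay above the limit. The gene that fell was Alpl, the alkaline phosphatase of the creatine cycle, by 0.65 ± 0.14 (limma, adjusted p = 0.0208), and it was lost without scramble replicate 2 (0.0834), scramble replicate 3 (0.0652) or shRNA replicate 2 (0.0702). The creatine kinase gene Ckb was at −0.05 ± 0.09 (adjusted p = 0.831), and the creatine synthesis gene Gatm was within the olfactory range. Other genes passed with an offset of 32, with an intensity trend, and with probe sets below the median left out. In each of these settings Gamt, Gpd2 and Slc25a5 passed as lower and Slc6a8 as higher. These genes were picked after their values were seen.

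**Figure D4:**
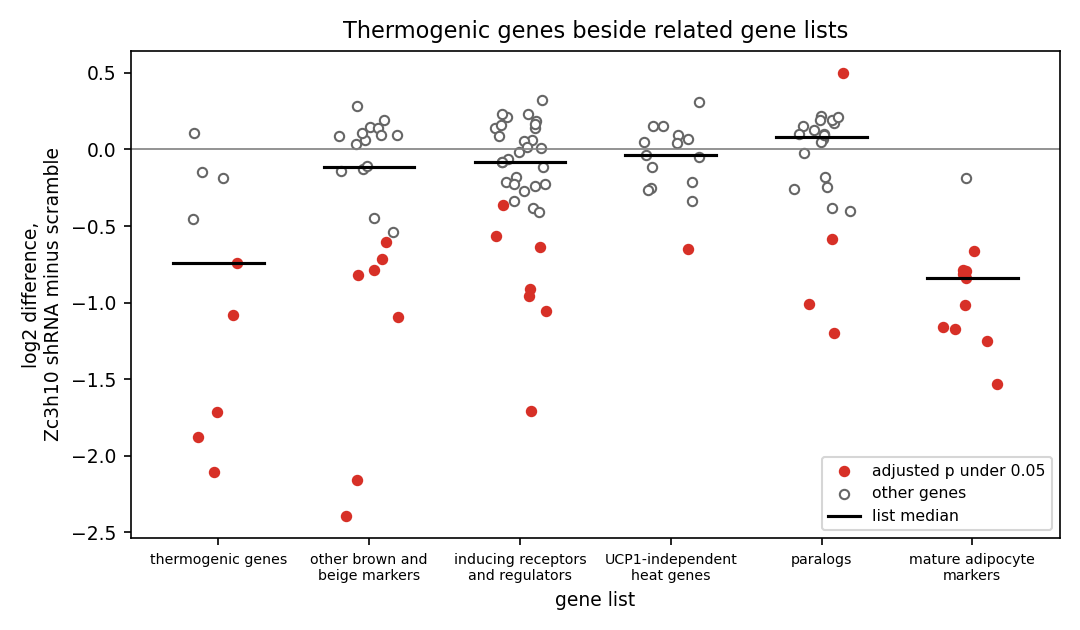
Log2 difference (Zc3h10 shRNA minus scramble, y axis) of single genes in the 9 measured thermogenic genes and 5 related lists; red points passed an adjusted p under 0.05 and black bars are list medians. The medians are −0.74 for the thermogenic genes and −0.84 for the mature adipocyte markers, and lie between −0.12 and 0.08 in the other lists.

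General markers of the fat cell moved with these genes. Of 11 measured mature adipocyte markers, 10 fell. This is 90.9% of the list, beside 6.6% of all named genes and 11.9% of those above the background limit lower. The median was −0.84, with a range of −1.53 to −0.19. The marker at −0.19 was Lep, whose means of 11.2 in scramble and 9.99 in shRNA cells lay within the olfactory range. The summed intensity of the 11 markers was 22880.5 to 25496 on the scramble arrays and 12669 to 13452 on the shRNA arrays. The part of this general fall in the thermogenic results was not tested. As a ratio to the mean of the 11 markers on the same array, a comparison chosen after the data were seen, Elovl3 shifted by −1.18 ± 0.10 (SE), Cox7a1 by −0.95 ± 0.42 and Cox8b by −0.79 ± 0.11, with no overlap between groups. Otop1 (−0.15 ± 0.12) and Ppargc1b (0.19 ± 0.14) overlapped. The ratio of Prdm16 was higher by 0.74 ± 0.15 in shRNA cells. Those of Ucp1, Ppargc1a and Dio2, which lay below the olfactory limit on all 6 arrays, were higher too. The marker mean itself fell by 0.93 on the log2 scale, so a gene that does not change gives a higher ratio. Each non-overlapping ratio had an exact permutation p of 0.1, or 0.129 adjusted over the 9 genes.

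Cox8b and Cox7a1 are also muscle genes, and C3H10T1/2 cells can form muscle. Of 12 skeletal muscle markers, 6 lay above the olfactory limit in scramble cells. Their summed intensity was 409 to 433 on the scramble arrays and 354 to 389 on the shRNA arrays. The oxygen store Mb (myoglobin) fell by 1.30 ± 0.13 and the fast-fibre actinin Actn3 rose by 0.59 ± 0.11, and both were above the limit. Actn3 (limma, adjusted p = 0.0133) missed the threshold with an ordinary t statistic (0.0685) and without scramble replicate 3 (0.0547). The muscle actin Acta1 (means of 72.3 and 69.5 in scramble and shRNA cells), the myogenic factor Myog (34.9 and 37.4) and the troponin gene Tnnt3 (28.7 and 27.9) lay above the limit too and did not pass. Myf5 (21.1 and 20.1) lay just above the limit in scramble cells only and did not pass. The group means of the fast myosins Myh1, Myh2 and Myh4, of Mylpf and of the muscle creatine kinase Ckm lay within the olfactory range, with Ckm above the limit on 1 scramble array. These muscle genes were picked from their list after their values were seen. Of 6 macrophage markers, 1 lay above the limit and 0 changed, and of 5 endothelial markers, 0 lay above it in scramble cells and 0 changed (limma, also 0 at an unadjusted p under 0.05 and 0 by an ordinary t statistic in each list). Over all named genes 12.1% changed, and 21.7% of those above the limit. In lists this short and mostly at background, 0 changed is not a result about these markers. The summed intensity of the macrophage markers was 88.5 to 94.8 in scramble and 76.2 to 90.2 in shRNA cells, and that of the endothelial markers 68.2 to 77.3 and 74.1 to 81.4.

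The hairpin's target and the arrays as a whole set the frame for these values. Zc3h10 averaged 33.4 ± 6.77 (SD, n = 3) in scramble and 26.1 ± 3.72 (SD, n = 3) in shRNA cells, a lower level that did not pass (limma, adjusted p = 0.301). Median intensities of the arrays were 15.6 to 16.1, and log2 values correlated across probe sets at 0.992 to 0.994 within a group. Within the shRNA group, replicate 1 was the highest array for 6 of the 9 thermogenic genes, and replicates 2 and 3 were each the lowest for 4. Within the scramble group, replicate 2 was the highest for 4 and replicate 1 the lowest for 5.

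Many genes followed the thermogenic genes over the arrays. The mean of the 9 centred log2 profiles correlated most closely with Echs1, an enzyme of mitochondrial fatty acid oxidation, Ndufb6, a complex I subunit, Ptgr2, a prostaglandin reductase, Ing4, a chromatin reader, and Ephx2, an epoxide hydrolase (Pearson r of 0.998 to 0.999 over 6 arrays). This is a description: the arrays form 2 separate groups, so r mainly reads the difference between them, and 1570 of 10944 genes compared had r above 0.9.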

How the data were processed

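RNA of 6 cultures, 3 per group by the replicate titles, was read on 1 Affymetrix array each. The authors deposited probe set intensities on a linear scale, already scaled between arrays, as read from the values. Affymetrix Expression Console and Partek 6.6 are named, without a role, per the submitters' processing notes; how background was corrected and probes were summarised is not stated there. Residual background compresses log2 changes of dim probe sets.

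Log2 was taken with no pseudocount. All 33079 probe sets were fitted with limma 3.58.1 in R 4.3.3 (lmFit, eBayes, two-sided), with Benjamini-Hochberg adjustment over all of them and a threshold of 0.05. Single ratios used an exact permutation test. The labels call the replicates biological without saying what was separate, so p-values measure the spread between these cultures. The code was tested on simulated data. The number of arrays limits precision.

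The members, gene lists and tests were chosen with earlier results of these data known. The rule for names covered all members, every gene past the threshold in each list (the 8 with the smallest p where more passed), a few fixed genes and the 5 most similar profiles; exceptions are marked. Same-numbered arrays did not deviate together (r of 0.08, −0.0046 and 0.04 for numbers 1 to 3). Names came from the platform annotation and RefSeq (GRCm38.p6). Alternatives were scaling, offset, filters, prior, ordinary t statistic, replicate block and arrays left out. Protein sequences were not used here.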

Additional observations from a re-analysis of the deposited data

How the results depend on the processing

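Over 135 tested combinations of a thermogenic gene and an alternative setting, 126 kept their direction and their side of the threshold, 7 lost a call (6 for Ppargc1b, 1 for Cox7a1), 2 gained one (Ucp1) and 0 reversed. The 5 genes that fell became 3 with an ordinary t statistic, and were 4 or 5 with 1 array left out. The replicate number does not pair the arrays; with it as a block, 4 of the 5 passed (Ppargc1b at an adjusted p of 0.0621), and 2455 probe sets changed; Mecom (0.0625) and Rxra (0.0780) were lost too, and Tbx1 (0.0435) was gained. The 3238 changed probe sets became 1972 with an ordinary t statistic and 1807 to 2578 with 1 array left out. The 7 changed regulators became 11 with an offset of 32 and 11 with probe sets under the median left out. In each of these settings 10 were lower and 1 was higher. The count of changed regulators was 6 or 7 with 1 array left out. The 1 changed gene of UCP1-independent heat became 5 with the offset, 2 with those under the lower quartile left out, 5 with those under the median left out, 5 with an intensity trend and 0 with an ordinary t statistic (5 at an unadjusted p under 0.05), and was 0 or 1 with 1 array left out. The 4 changed paralogs became 8 with the offset, 7 with the trend and 2 with the ordinary t statistic, and were 3 or 4 with 1 array left out. The 7 changed brown and beige markers stayed at 7 in count with any 1 array left out. The cause of these shifts was not tested, except that the filters adjust over fewer probe sets. The ratio of Otop1 to the adipocyte markers reversed to 0.26 with the offset, which damps dim probe sets. Of the 9 genes, 6 lay above background by the olfactory limit, 6 by vomeronasal receptor genes and 8 by the olfactory 90th percentile. The gene pair shifts were −1.54 to −1.39 (Cox8b), −1.84 to −1.11 (Cox7a1), 0.37 to 0.86 (Ppargc1a) and −1.63 to −1.44 (Elovl3) with 1 array left out. Signal over background limits Ucp1, Ppargc1a and Dio2 most.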
